A study of Saccharomyces cerevisiae with 44 samples.

Results

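The response of budding yeast to DOX was measured by RNA-seq as 4 libraries of DOX-treated cells against 4 libraries of vehicle-treated cells, 8 of the 44 libraries in the series. The DOX group was wild-type Saccharomyces cerevisiae of the W303 background in synthetic complete (SC) medium with 25 µg/mL DOX, and the CD group was the same strain in the same medium with water. Both groups grew at 30 °C to a low optical density before the addition and were harvested at a time set by the inhibitor's IC50, which the labels do not give in minutes. Each group held 2 biological replicates (called cultures here), each sequenced as 2 technical replicates, whose counts were added up, so that n = 2 cultures a group throughout. All 6692 annotated features were considered, and 6344 with enough reads were tested. The other SC comparisons used below are AD (50 µg/mL) against CA (acetone) and MTX (150 µg/mL) against CM (dilute NaOH), with the same strain and replication. HU (50 mM) and MMS (0.002%) against C0 (water) and CPT (100 µg/mL) against CC (NaOH) were grown in the rich medium YEPD instead, with the same strain and replication.

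DOX is the usual abbreviation of doxorubicin, an anthracycline that intercalates into DNA and traps topoisomerase II on cleaved DNA; the labels give the abbreviation alone. In yeast, DNA lesions are read by the Mec1 and Rad53 kinases, which raise ribonucleotide reductase genes through Dun1. Damaged proteins are handled by the chaperones under Hsf1 and by the proteasome, whose subunit genes share the activator Rpn4, and drug efflux is driven by the Pdr1 and Pdr3 regulators.

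Depth was 8.07 to 8.91 M counted reads (M, megareads) per DOX library and 10.79 to 12.9 M per CD library. Mitochondrial features held 0.537 to 0.574% of the counts in DOX libraries and 0.323 to 0.362% in CD libraries. Features with YLR names in the ribosomal DNA region of chromosome XII held 2.093 to 2.387% in DOX libraries and 1.328 to 1.496% in CD libraries. These are not the rRNA genes, so their share is not the rRNA content of the libraries. Genes that mark mating type a summed to 1104 and 1047 CPM (reads per megaread, after scaling) in DOX cultures and to 1269 and 1251 CPM in CD cultures. Genes that mark mating type alpha summed to 40.5 and 45.6 CPM in DOX cultures and 28.6 and 28.6 CPM in CD cultures, so both groups carried the markers of a cells. The part that the shares of mitochondrial features and of the ribosomal DNA region had in the results was not tested. With all cultures thinned to equal depth, 2570 genes differed between DOX and CD, against 2615 at the deposited depth.

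The levels of a large part of the genome differed between DOX and CD cultures, in both directions. Of the 6344 genes tested, 1332 were higher (21%) and 1283 lower (20.2%) in DOX cultures at an adjusted p under 0.05 (edgeR's quasi-likelihood test on all 22 cultures with Benjamini-Hochberg adjustment), together 41.2% of the genes. At least 2-fold changes were found for 408 of the higher genes (6.43% of those tested) and 432 of the lower genes (6.81%). The median log2 fold change over all genes was -0.02. Both DOX cultures lay above both CD cultures for 2489 genes (39.2%) and below both for 2581 genes (40.7%). In the same fit the share of genes called was 3.14% for AD against CA and 19.8% for MTX against CM in SC. In YEPD it was 3.56% for HU against C0, 10.8% for MMS against C0 and 2.81% for CPT against CC. The SD of the log2 fold changes over genes was 0.763 for DOX, and between 0.368 and 0.545 for the other treatments.

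**Figure D1:**
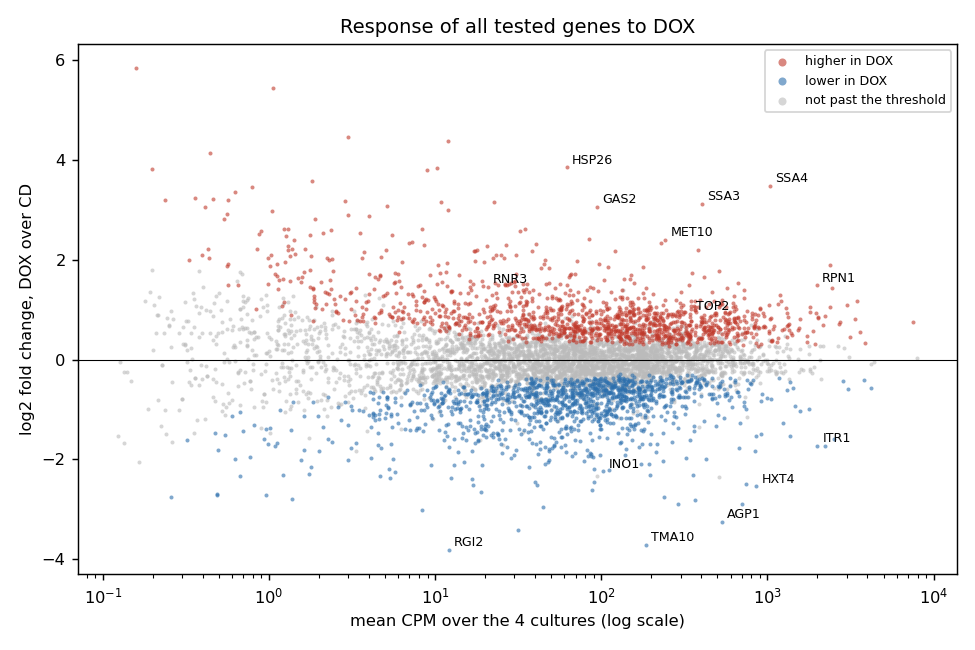
Log2 fold change of DOX over CD (vertical axis) against the mean CPM over the 4 cultures (horizontal log axis) for the 6344 genes tested, each point 1 gene, coloured by direction where the adjusted p was under 0.05. The 1332 higher and 1283 lower genes spread over the whole range of levels, with SSA4 among the highest rises at high level and AGP1 among the deepest falls.

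Among genes with a standard name, a mean of at least 10 CPM, separated cultures and no copy or overlap, the largest rises included 3 heat-shock chaperone genes. HSP26, a small heat-shock protein that holds unfolded proteins, had 93.1 and 138.8 CPM in DOX cultures against 7.15 and 8.84 CPM in CD cultures. Its log2 fold change was 3.86 ± 0.43 (SE; adjusted p = 9e-06). SSA4, a stress-induced Hsp70 chaperone at chrV:364589-366517, had 1627 and 2173 CPM in DOX cultures against 157.1 and 183.6 CPM in CD cultures. Cultures separated by group were a condition of the choice of these genes. SSA3, another stress-induced Hsp70, had 671.5 and 775.4 CPM in DOX cultures against 83.8 and 82.0 CPM in CD cultures, a log2 fold change of 3.13 ± 0.21.

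The other genes among the 10 largest rises have varied roles. PHO92, which encodes an RNA-binding protein that reads methylated adenines, had a log2 fold change of 3.17, and SDH9, a paralog of a succinate dehydrogenase subunit, 3.16. GAS2, a glucan-modifying enzyme of the spore wall, had 170.5 and 167.4 CPM in DOX cultures against 21.1 and 19.2 CPM in CD cultures. SET4 (2.63), which belongs to the SET domain family, DAS1 (2.59), which encodes an F-box protein, and PRM1 (2.42), needed for membrane fusion in mating, also rose. MET10, a subunit of sulfite reductase, had 455.3 and 359.9 CPM in DOX cultures against 78.0 and 76.0 CPM in CD cultures.

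The 10 largest falls by the same rule included transporter genes (AGP1, JEN1, ADY2) and genes of sugar and glycogen metabolism (HXK1, GSY1). AGP1, a broad-range amino acid permease at chrIII:76018-77919, had 112.6 and 88.8 CPM in DOX cultures against 996.6 and 918.6 CPM in CD cultures, a log2 fold change of -3.25 ± 0.17 (adjusted p = 1.1e-08). HXK1, a hexokinase, had 127.0 and 206.8 CPM in DOX cultures against 1150 and 1330 CPM in CD cultures. MPF1 (-2.77 ± 0.42) and ROQ1 (-2.95 ± 0.56), a regulator of the ubiquitin ligase Ubr1, fell as well. RGI2 (-3.82), linked to respiratory growth, TMA10 (-3.72), JEN1 (-2.90), a lactate permease, GSY1 (-2.82), a glycogen synthase, UIP4 (-2.66) and ADY2 (-2.61), an acetate transporter, passed the threshold with SEs of 0.77 to 1.04. Of these, JEN1 and GSY1 missed the threshold when any of the 4 cultures was left out, UIP4 and ADY2 without any of 3 of them, RGI2 without either DOX culture, and TMA10 without DOX culture 1.

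**Figure D2:**
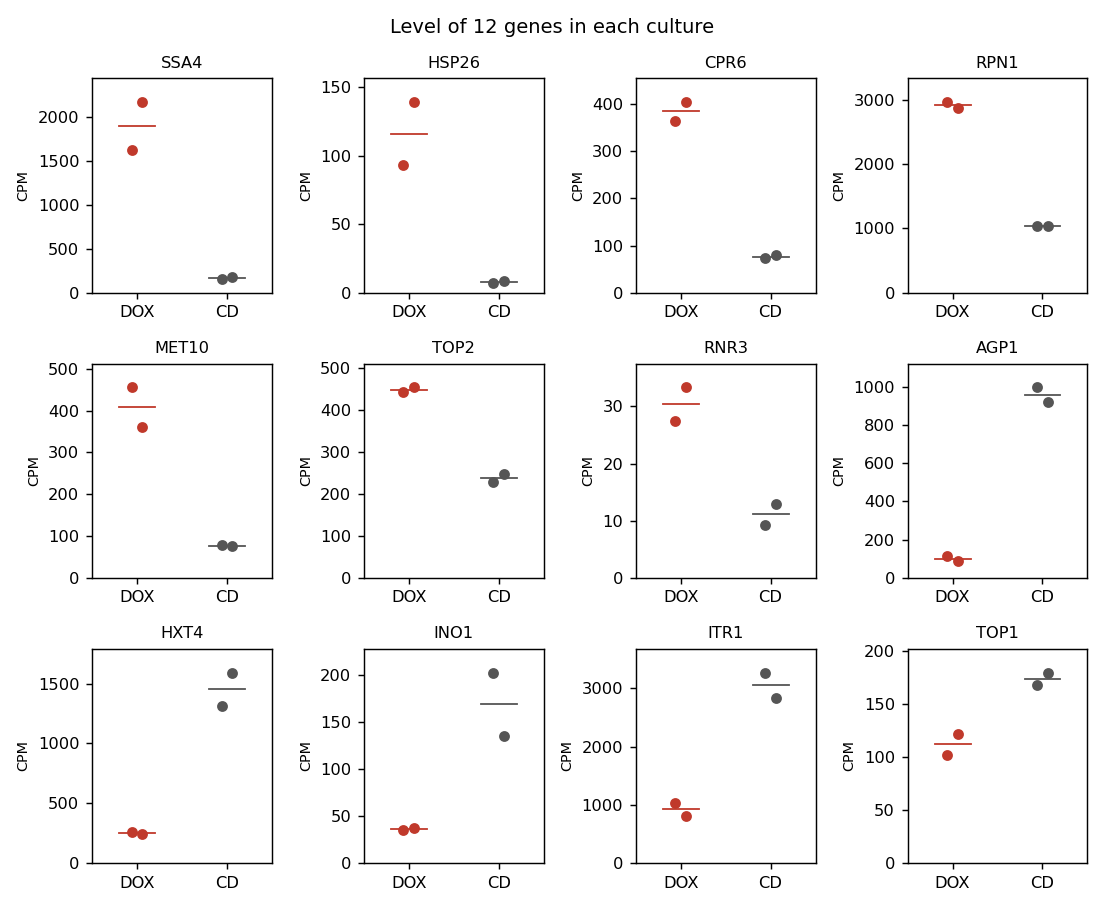
CPM in each of the 2 DOX and 2 CD cultures (points) with the group mean (line) for 12 genes, DOX at the left; each axis starts at 0. For these genes the DOX cultures lie all above (SSA4, HSP26, CPR6, RPN1, MET10, TOP2, RNR3) or all below (AGP1, HXT4, INO1, ITR1, TOP1) the CD cultures.

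Proteasome genes rose almost as a block. Of 33 members tested, 29 rose and 1 fell, a median log2 fold change of 0.78 beside -0.02 over all genes. RPN1, a base subunit that docks ubiquitin receptors, had 2960 and 2872 CPM in DOX cultures against 1040 and 1033 CPM in CD cultures (log2 fold change 1.49 ± 0.10, adjusted p = 3.4e-08). PRE7 and RPT5, a core particle subunit and an ATPase of the base, had log2 fold changes of 1.20 ± 0.13 and 0.98 ± 0.10. RPN13 (0.01), RPN11 (0.09) and PUP3 (0.21) did not pass the threshold. The member that fell was RPN4, the transcriptional activator of the others, with 113.2 and 128.7 CPM in DOX cultures against 200.1 and 182.6 CPM in CD cultures (log2 fold change -0.66 ± 0.17, adjusted p = 0.0062). UBA1, the ubiquitin-activating enzyme, named here after its values were seen, had 3960 and 3528 CPM in DOX cultures against 1018 and 987.1 CPM in CD cultures.

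The Rpn4 element GGTGGCAAA was in 27 of the 33 promoters of the list (81.8%) and in 72 of all 5888 promoters searched (1.22%), reading the 300 bases before the start codon on both strands. Of the 72 genes with the element, 65.3% rose and 6.94% fell, against 20.5% and 21.2% of genes without it; proteasome genes make up a large part of the 72. Stretches from 300 to 101 bases before the start codon are shown for 2 subunit genes whose matches lie in it (sacCer3 coordinates, RefSeq sequence; the element in capitals). The RPN1 stretch is chrVIII:164812-165011 on the minus strand, and the RPT5 stretch is chrXV:544729-544928 on the plus strand.
RPN1: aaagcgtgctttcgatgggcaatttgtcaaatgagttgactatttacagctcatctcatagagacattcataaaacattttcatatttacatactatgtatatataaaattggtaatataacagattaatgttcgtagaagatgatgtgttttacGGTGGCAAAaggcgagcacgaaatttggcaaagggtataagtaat
RPT5: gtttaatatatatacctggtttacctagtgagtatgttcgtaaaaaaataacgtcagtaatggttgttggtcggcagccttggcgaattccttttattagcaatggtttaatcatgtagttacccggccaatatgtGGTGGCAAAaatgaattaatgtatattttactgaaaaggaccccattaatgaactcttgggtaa

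Inositol and phospholipid synthesis moved the other way. Of 18 members tested, none rose and 15 fell, with a median log2 fold change of -1.21. INO1, inositol-3-phosphate synthase, had 34.7 and 37.0 CPM in DOX cultures against 202.9 and 135.4 CPM in CD cultures (log2 fold change -2.24 ± 0.19). ITR1, the major inositol transporter, had 1028 and 811.9 CPM in DOX cultures against 3274 and 2835 CPM in CD cultures (-1.73 ± 0.12, adjusted p = 8.4e-08). CKI1, choline kinase, fell by 1.41 on the log2 scale. The fall covered the regulators as well: the activator genes INO2 (-1.36) and INO4 (-1.55) and the repressor gene OPI1 (-1.69) were all lower. EKI1 (-0.30), ITR2 (0.04) and CPT1 (0.10) did not pass.

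The Ino2-Ino4 element CATGTGAA was found in 11 of the 18 promoters (61.1%) and in 53 of the 5888 promoters (0.9%). Among those 53 genes, 50.9% fell and 9.43% rose, and among genes without it 20.8% fell and 21.2% rose. The 11 phospholipid genes are among the 53, so these shares are not separate from the falls of the list. The promoters of the inositol synthase and transporter genes hold 2 matches each in the stretches below, from 300 to 101 bases before the start codon, on the minus strand at chrX:136034-136233 (INO1) and chrIV:1445568-1445767 (ITR1); capitals mark the element on either strand.
INO1: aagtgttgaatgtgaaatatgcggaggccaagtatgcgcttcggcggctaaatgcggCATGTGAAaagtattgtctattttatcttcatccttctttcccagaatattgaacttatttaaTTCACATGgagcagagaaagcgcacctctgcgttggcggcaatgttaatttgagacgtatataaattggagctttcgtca
ITR1: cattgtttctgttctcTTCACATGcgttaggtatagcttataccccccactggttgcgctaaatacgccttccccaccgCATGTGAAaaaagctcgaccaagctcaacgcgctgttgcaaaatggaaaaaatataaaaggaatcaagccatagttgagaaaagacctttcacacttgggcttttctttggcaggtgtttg
For comparison, the Hsf1 core GAANNTTC was in 54.2% of promoters of the Hsf1 chaperones described below and in 11.7% of all promoters. The Cbf1 element CACGTG was in 34.8% of promoters of the sulfate assimilation genes described below and in 3.57% of all promoters. Among promoters of all genes at least 2-fold higher, the shares were 11.2% for the Hsf1 core, 6.61% for the Cbf1 element and 4.31% for the Rpn4 element. A match in these windows is a description of the letters and not of binding.

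**Figure D3:**
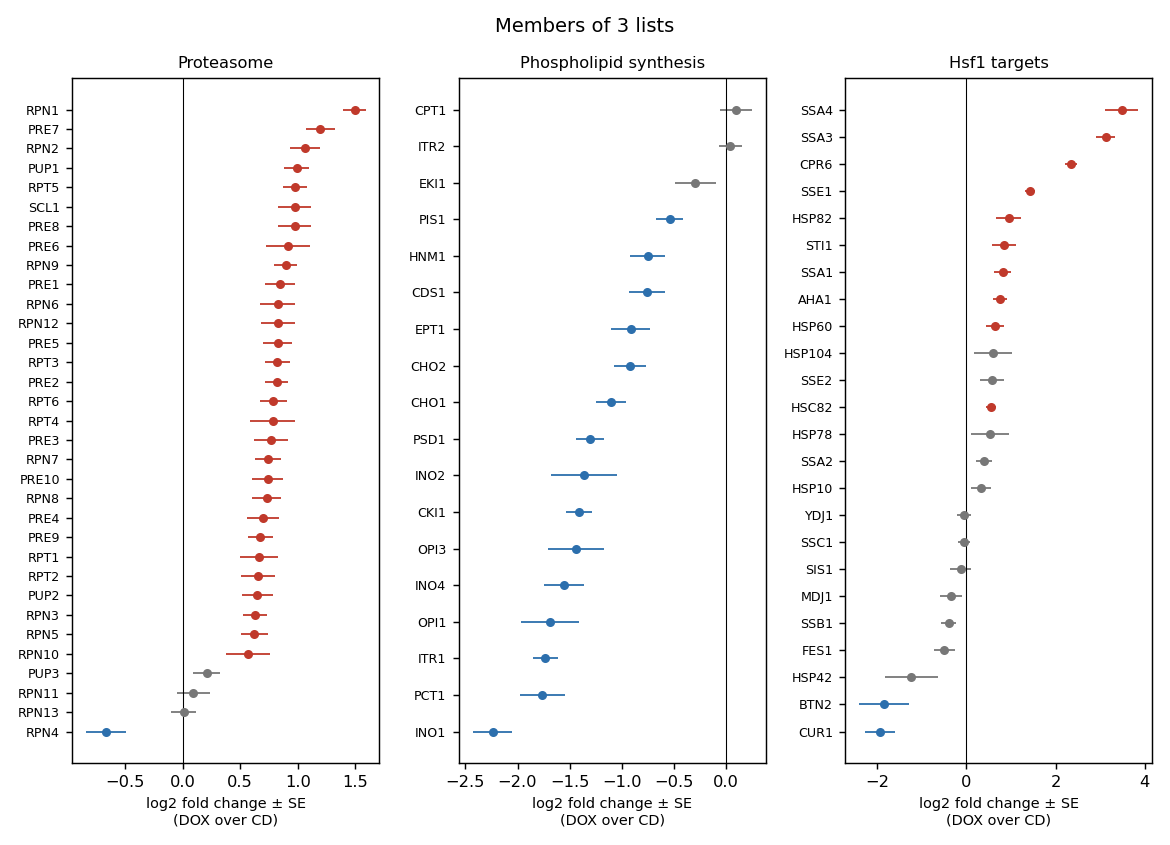
Log2 fold change of DOX over CD (horizontal axis) with its SE for each tested member of 3 lists (rows), red where higher and blue where lower past the threshold, grey otherwise. The proteasome panel lies right of 0 except RPN4, 15 of 18 phospholipid members lie left of 0 past the threshold, and the Hsf1 panel holds both SSA4 at 3.48 and CUR1 at -1.94.

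Chaperones under Hsf1, the heat-shock factor, rose more often than they fell. Of 24 members tested 10 rose and 2 fell, with a median log2 fold change of 0.53. The shares were 41.7% and 8.33%, beside 21% and 20.2% over all genes tested. Beside SSA3 and SSA4, CPR6, a cyclophilin co-chaperone of Hsp90, had 365.0 and 404.1 CPM in DOX cultures against 73.1 and 78.8 CPM in CD cultures (log2 fold change 2.34 ± 0.14). SSE1, a nucleotide exchange factor for Hsp70, rose by 1.43 ± 0.11 on the log2 scale. The Hsp90 genes HSP82 (0.94) and HSC82 (0.54) rose as well. CUR1 and BTN2, which sort misfolded proteins into deposits, fell by 1.94 and 1.85; HSP42, which works with them, had a log2 fold change of -1.24 and an adjusted p of 0.11. SSA1, SSA2 and SSB1 have near-identical copies, so their values are uncertain.

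Of 25 general stress genes under Msn2 and Msn4, 4 rose and 5 fell, shares of 16% and 20% near the background, with a median of -0.68. The count of falls was 15 in a fit with only DOX and CD, 14 with the replicate block, 1 without CD culture 2 or DOX culture 1, and 2 without CD culture 1 or DOX culture 2. HXK1 fell as described, GPH1, glycogen phosphorylase, had -2.50 and SPI1 -1.37; GPH1 missed the threshold whichever culture was left out, and SPI1 without CD culture 2 or DOX culture 1. Of 18 endoplasmic reticulum stress genes 3 were higher and 3 lower, 16.7% each and near the background. PDI1 (0.68), HAC1 (0.59) and IRE1 (0.43) rose, while KAR2 (-0.52), the lumenal Hsp70, fell. HAC1 missed the threshold without CD culture 1, CD culture 2 or DOX culture 1, and with only technical replicate 2. IRE1 missed it without CD culture 2.

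Genes of peroxide and thiol defense rose. Of 21 Yap1 targets 12 rose and none fell (median 0.70). FLR1, a drug exporter, had 157.7 and 149.1 CPM in DOX cultures against 40.2 and 41.2 CPM in CD cultures, OYE2 had a log2 fold change of 1.01 and CCP1, mitochondrial cytochrome c peroxidase, 0.98. Sulfate assimilation followed, with 13 of 23 members higher and 2 lower (median 0.69). CYS3, cystathionine gamma-lyase, had a log2 fold change of 1.43 and MET1 1.61, whereas SAM2 (-0.73) and MET13 (-0.47) fell. Of 16 Pdr1 and Pdr3 targets and regulators 7 rose and 3 fell; 4 rose without CD culture 1 or DOX culture 2, and 1 fell without CD culture 1. PDR3, a regulator, had a log2 fold change of 1.13, PDR12 1.05 and PDR10 0.57. The exporter PDR5 had 746.1 and 791.6 CPM in DOX cultures against 485.0 and 503.4 CPM in CD cultures (0.64 ± 0.19), and SNQ2 0.60 ± 0.17; PDR5 missed the threshold without 3 of the 4 cultures and SNQ2 without 2 of them.

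In the DNA damage regulon 5 of 20 members rose and 5 fell (25% each, near the background of 21% and 20.2%; median 0.23). RNR3, the damage-induced large subunit of ribonucleotide reductase, had 27.5 and 33.3 CPM in DOX cultures against 9.27 and 12.9 CPM in CD cultures (1.45 ± 0.34, adjusted p = 0.0031). RNR1, the constitutive large subunit, had 103.3 and 100.3 CPM in DOX cultures against 153.2 and 159.9 CPM in CD cultures (-0.62 ± 0.19), a call lost whichever culture was left out. The small subunit genes RNR2 (0.05, adjusted p = 0.82) and RNR4 (0.33, adjusted p = 0.08) and the reductase inhibitor gene HUG1 (1.06 ± 0.71, adjusted p = 0.25) did not pass. DIN7 (1.07), DDI1 (0.94) and DUN1 (0.77), the kinase itself, rose; DUN1 missed the threshold without DOX culture 2.

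TOP2, topoisomerase II at chrXIV:457704-461990, had 441.5 and 453.6 CPM in DOX cultures against 229.1 and 246.3 CPM in CD cultures (log2 fold change 0.91 ± 0.12, adjusted p = 3.9e-05). TOP1, topoisomerase I, had 102.5 and 121.8 CPM in DOX cultures against 168.5 and 180.1 CPM in CD cultures (-0.64 ± 0.23, adjusted p = 0.038), a call lost whichever culture was left out. The cultures of both genes were separated by group, in opposite directions. Over the list of topoisomerases and removal of their adducts, 5 of 17 rose and 4 fell, shares of 29.4% and 23.5%. Without DOX culture 1 there was 1 fall, without CD culture 2 or DOX culture 2 there were 2, and without CD culture 1 there were 3 rises and 3 falls. RMI1 (0.75) and RAD50 (0.58) were among the risers, and RAD50 missed the threshold without CD culture 1. Of 19 recombination genes 3 rose and 2 fell (median 0.003). The shares of 15.8% and 10.5% were below the 21% and 20.2% over all genes tested. The risers were RAD59 at 1.26, RDH54 at 0.91 and EXO1 at 0.45, and the lowest member had -1.28. EXO1 lost its call whichever culture was left out.

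Histone genes fell. Of 11 members 9 were lower and none higher (median -0.79). HTB2, a histone H2B gene, had 12.4 and 13.2 CPM in DOX cultures against 30.2 and 30.5 CPM in CD cultures (-1.24 ± 0.18). HTA1 (-1.09), HTA2 (-1.16) and HTB1 (-1.08) fell by similar amounts, and HHT2 by 0.69; HHT1 (-0.39) lost its call whichever culture was left out, and HHF1 (-0.93) and HHF2 (-0.79) are near-identical copies. In contrast, subunits of the histone chaperone FACT rose: SPT16 had 1713 and 1656 CPM in DOX cultures against 671.8 and 693.1 CPM in CD cultures (1.30 ± 0.12), and POB3 0.60.

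Cell cycle lists differed. Of 30 G1-S genes 11 rose and 1 fell, with the single-strand binding genes RFA1 (0.95) and RFA2 (0.69) among the risers. Of 17 M-G1 cell separation genes none rose and 9 fell (median -0.61), led by EGT2, with 26.7 and 29.8 CPM in DOX cultures against 93.1 and 93.4 CPM in CD cultures, SCW11 (-1.88) and DSE2 (-1.33). Of 18 CLB2 cluster genes 5 rose and 2 fell, with a median of 0.07 and the lowest member at -1.38. The shares of 27.8% and 11.1% stand beside 21% and 20.2% over all genes tested. The risers included DBF2 (1.06), MYO1 (1.05) and ALK1 (0.86). In a culture, a change in the share of cells in a cell cycle stage and a change of RNA per cell cannot be told apart.

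Translation genes split by kind. Of 86 mitochondrial ribosomal protein genes 58 fell and 2 rose (median -0.61), among them RSM26, with 36.3 and 36.8 CPM in DOX cultures against 143.9 and 139.3 CPM in CD cultures. Of 138 cytosolic ribosomal protein genes 51 fell and none rose (median -0.28); 50 of the 138 have near-identical copies or overlap another feature. RPL22B (-1.97) and RPL16A (-1.40) were among those that fell. Of 61 ribosome biogenesis genes 8 fell and 1 rose (median -0.24). The shares of 13.1% and 1.64% were below the 20.2% and 21% over all genes tested. The median was -0.34 without DOX culture 1 and -0.09 without DOX culture 2. In a fit with only DOX and CD 25 fell and 3 rose. Of 19 cytosolic aminoacyl-tRNA synthetase genes 13 rose and none fell (median 0.38), with CDC60 at 0.86, FRS1 at 0.67 and HTS1 at 0.65.

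Protein genes of the mitochondrial genome rose while mitochondrial ribosome genes fell. Of 8 tested, 6 rose and none fell (median 0.79). COX3, a cytochrome c oxidase subunit, had 1787 and 1627 CPM in DOX cultures against 919.4 and 957.6 CPM in CD cultures (0.86 ± 0.17); COX1 (0.83) and COB (0.83) overlap other features. Of 19 genes of the tricarboxylic acid and retrograde pathway 9 rose and 1 fell, with FUM1, fumarase, at 1.78, PYC1 at 1.11 and IDH1 at 1.10. Of 35 nuclear respiratory genes 7 rose and none fell, a share of 20% near the background.

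Falls outnumbered rises among nitrogen and hexose genes. Of 30 nitrogen genes 15 fell and 4 rose (median -0.58), among them AGP1, MEP3, an ammonium permease (-1.79), and GNP1, a glutamine permease (-1.32). Of 16 hexose genes 9 fell and 2 rose (median -0.72). HXT4, a hexose transporter, had 255.6 and 243.9 CPM in DOX cultures against 1314 and 1594 CPM in CD cultures (-2.54 ± 0.35), HXT2 had -1.49 and HXK2, the main hexokinase, -1.03. In the phosphate and iron lists rises outnumbered falls. Of 12 zinc and copper genes 3 rose and 3 fell, 25% each, with a median of -0.20. Of 18 phosphate genes 6 rose and 1 fell, shares of 33.3% and 5.56% (median 0.40). Of 22 iron genes 5 rose and 3 fell (median 0.17). The iron shares were 22.7% and 13.6%, beside 21% and 20.2% over all genes tested, so the rises were near the background. FRE2 (1.05), ARN1 (0.87) and ARN2 (0.86) were higher, and the lowest iron gene had -1.03. Of 22 cell wall genes 8 fell and 4 rose, with PIR1 (-1.92), CCW12 (-1.40) and GAS1 (-1.27) lower.

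Other metabolic lists differed in direction. Of 24 ergosterol genes 13 rose and none fell, with ERG13 at 1.09; of 22 purine genes 11 rose and 1 fell, with ADE1 at 1.07. Of 35 Gcn4 targets 13 rose and 6 fell, with TRP2 (1.20), TRP5 (1.17) and LEU1 (1.18) higher. Of 20 vacuolar genes 10 rose and none fell, with VMA1, a subunit of the proton pump, at 1.10, and of 22 actin patch genes 10 rose and none fell, with ABP1 at 1.12. Of 20 fatty acid genes 8 fell and 1 rose, with OLE1, the fatty acid desaturase, at -0.99. Of 13 pyrimidine genes 3 fell and 1 rose, shares of 23.1% and 7.69%, with a median of -0.08. The pyrimidine falls were near the 20.2% over all genes tested.

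Some genes of other cell fates were also higher. Of 26 meiosis and sporulation genes 13 rose and 1 fell (median 0.61), including REC104, with 27.9 and 30.8 CPM in DOX cultures against 7.35 and 5.37 CPM in CD cultures, and RED1 (1.96); the entry regulator IME1 was the member that fell (-1.59). Markers of sporulating cells summed to 193.3 and 223.0 CPM in DOX cultures against 134.1 and 115.4 CPM in CD cultures, and their part in these results was not tested. Of 18 pheromone genes 8 rose and 3 fell, with KAR4 at 1.22 and PRM2 at 1.45. Of 4 alpha-specific genes 2 rose and 1 fell, with log2 fold changes from -2.72 to 3.07. Among them STE3, the a-factor receptor of alpha cells, had 8.24 and 10.1 CPM in DOX cultures against 1.12 and 1.04 CPM in CD cultures.

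**Figure D4:**
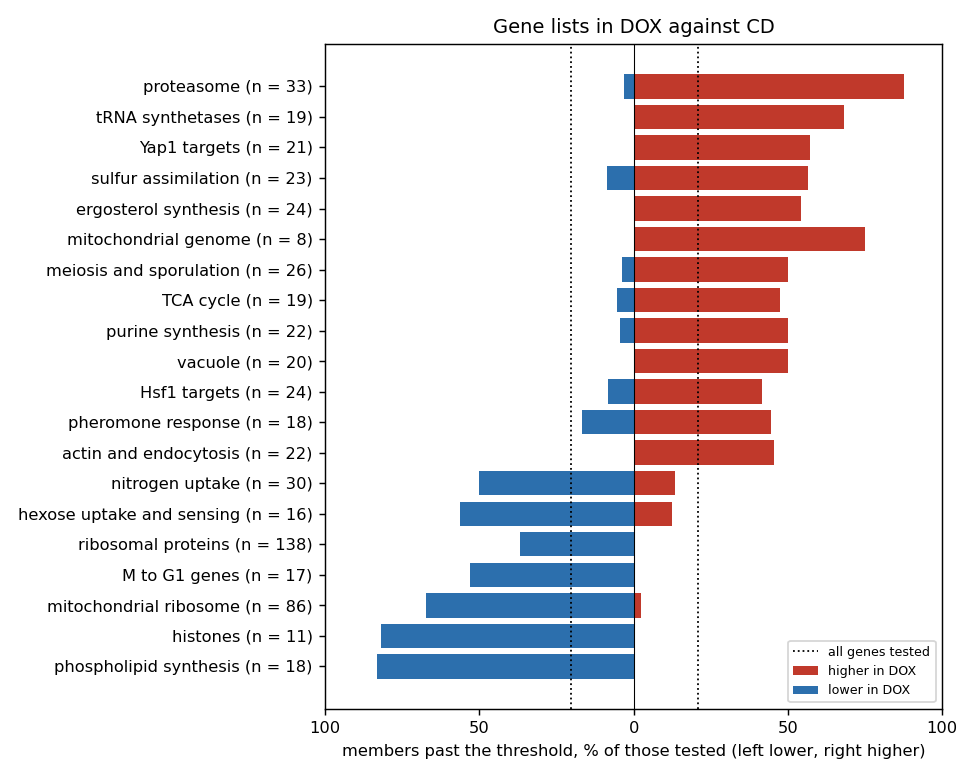
Share of tested members past the threshold in 20 gene lists, lower in DOX to the left and higher to the right, with dotted lines at the share over all genes tested (20.2% lower, 21% higher). Proteasome genes reach 87.9% higher and phospholipid genes 83.3% lower.

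With 1 culture left out at a time, fewer members passed the threshold in many lists. Proteasome rises ranged from 27 to 29 of 33, and 15 of 18 phospholipid genes fell in each of these fits. Falls among cytosolic ribosomal genes ranged from 17 (without DOX culture 2) to 61 (without DOX culture 1), and among mitochondrial ribosomal genes from 33 to 43. Falls of hexose genes ranged from 5 to 6 and of M-G1 genes from 5 to 7; rises of respiratory genes ranged from 0 to 2, of G1-S genes from 6 to 9, of tRNA synthetases from 8 to 14 and of ergosterol genes from 8 to 11. Rises of TCA genes ranged from 4 to 7 and of meiosis genes from 8 to 12, and falls in the damage regulon from 1 to 4. Rises of CLB2 cluster genes ranged from 3 to 5, of cell wall genes from 1 to 2, of nitrogen genes from 1 to 3 and of phosphate genes from 2 to 6. Falls of Gcn4 targets ranged from 2 to 7 and of fatty acid genes from 4 to 6, and rises of iron genes from 3 to 4.

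Whether the DOX response differed from the responses to the other SC treatments was tested as the DOX response minus the mean of the AD and MTX responses. The difference passed the threshold for 556 genes in the higher direction (8.76% of those tested) and 443 in the lower (6.98%), 15.7% in all. Among the genes with a standard name, no copy or overlap and at least 10 CPM, SSA4 had the largest difference, which was 3.27 ± 0.44 on the log2 scale (adjusted p = 0.00027), with log2 fold changes of 0.57 in AD and -0.14 in MTX. SSA3 (2.78), GAS2 (2.87), SET4 (2.46), DAS1 (2.36) and CRR1 (2.10) followed. AGP1 had the lowest of them, -2.56 ± 0.20, and INO1 had -2.31 ± 0.23, with log2 fold changes of -2.05 in AD and 2.19 in MTX. CWP1 (-2.51), MDH2 (-2.29), SUR1 (-2.24) and STP4 (-2.21) were also lower. A rise in MTX can enter such a difference. MDH2 had log2 fold changes of -2.02 in DOX, -1.22 in AD and 1.75 in MTX.

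By list, 17 of 33 proteasome genes, 10 of 24 Hsf1 chaperones and 11 of 19 tRNA synthetases had a higher response in DOX than this mean. Falls in MTX enter these differences. In MTX 7 of the 24 Hsf1 chaperones fell (median -0.39, and -0.03 in AD). Of the 19 tRNA synthetases 10 fell in MTX (median -0.36, and 0.20 in AD). A lower response in DOX was found for 13 of 18 phospholipid genes, 21 of 86 mitochondrial ribosomal genes and 6 of 11 histone genes. In the damage regulon 7 of 20 genes had a lower response in DOX and none a higher one; the list's median log2 fold change was 0.23 in DOX, 0.04 in AD and 0.90 in MTX, where 13 of 20 rose. RNR2 had log2 fold changes of 0.05 in DOX, 0.51 in AD and 2.66 in MTX, and its difference was -1.53 ± 0.21 (adjusted p = 0.00025). RNR3 had 1.45 in DOX, 0.74 in AD and 2.60 in MTX, a difference of -0.22 ± 0.41 that did not pass (adjusted p = 0.76). Across the 6344 genes the DOX and AD fold changes had a Pearson r of 0.644 and the DOX and MTX fold changes 0.252, as a description over genes, which are not independent. Of the 199 genes called in AD, 182 were also called in DOX (91.5% of the AD calls and 6.96% of the DOX calls), 180 of them in the same direction.

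**Figure D5:**
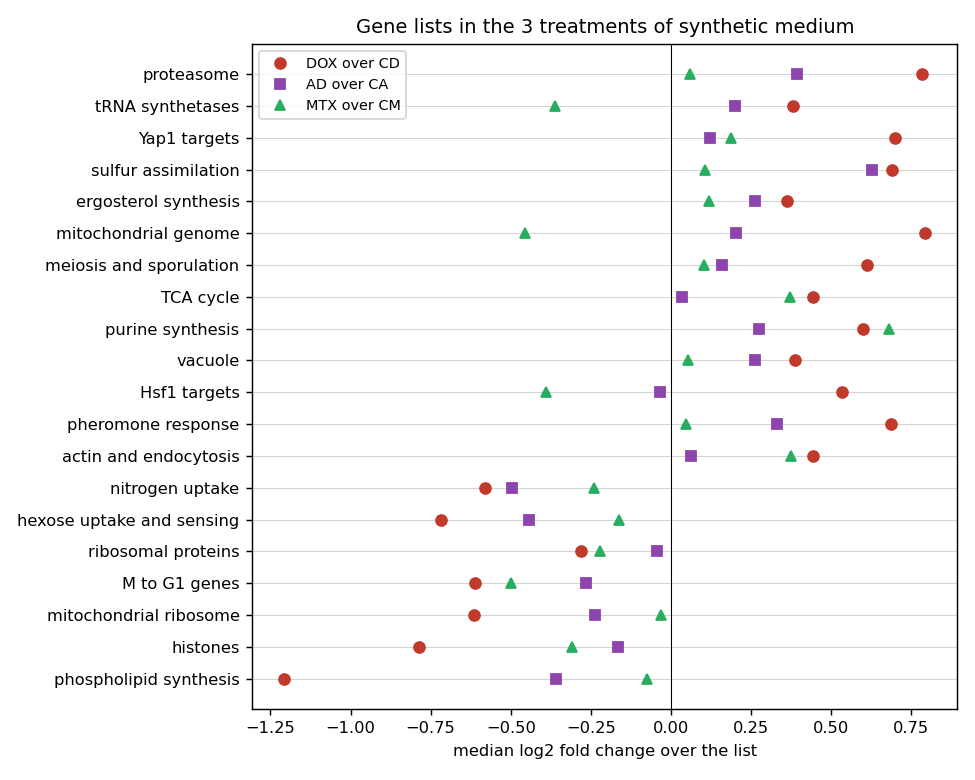
Median log2 fold change over each of 20 gene lists (rows) for DOX over CD (circles), AD over CA (squares) and MTX over CM (triangles). The phospholipid median is -1.21 in DOX, -0.36 in AD and -0.07 in MTX, and the proteasome median is 0.78, 0.39 and 0.06.

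The share of genes called varied with gene properties. Of 5 equal bins by coding length, the bin of longest genes was higher in 27.7% and lower in 15.8% of cases. Of 5 bins by level in CD, the lowest was higher in 24.3% and lower in 10.6%. The CD level also enters the fold change, so a gene low in CD by noise tends towards a rise. The shares of that bin therefore cannot show an effect of level on the response. Among adjacent protein genes that were both called, divergent pairs moved in the same direction in 67% of 221 pairs, tandem pairs in 53.1% of 456 and convergent pairs in 52.1% of 238. Divergently placed genes 20 genes apart did so in 54.4% of 206 pairs.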

How the data were processed

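RNA-seq counts were used for 44 libraries, 22 cultures in 11 groups. The authors deposited raw read counts per gene from featureCounts 1.6.0, per the file headers, after Bowtie2 alignment to sacCer3, per the submitters' processing notes. The headers name no strand, read-pair or overlap option, so reads over more than 1 feature are left out and antisense reads cannot be told apart; bam names in the headers refer to marked duplicates and non-redundant reads. Technical replicates were summed. Genes were filtered with filterByExpr, scaled by TMM and tested with edgeR 4.0.16 (quasi-likelihood, robust, 1 mean a group over all 22 cultures; R 4.3.3), with Benjamini-Hochberg adjustment over 6344 genes and a threshold of 0.05. CPM use these TMM scale factors. In simulated counts for DOX against CD (6340 genes), the test found 28.4% of the 1.5-fold, 61.2% of the 2-fold and 97% of the 4-fold changes, and called 7 of 6140 genes left as they were.

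The authors' deposited DESeq2 table (log2 fold changes and adjusted p-values, on the log2 scale) lists 3874 genes at an adjusted p-value under 0.05, 2600 of them among the 2615 called here, all 2600 in the same direction. Coordinates were the same in RefSeq for 6000 of 6008 matched features; near-identical copies (95% identity over 30% of the length, BLAST 2.17.0) and overlapping features are marked as uncertain. The gene lists (48), the genes named and the tests were chosen with earlier results of these data known. Named genes are the 10 largest clean rises and falls (at least 10 CPM, standard name, no copy or overlap, cultures separated by group), up to 3 members with the smallest p per list, fixed genes of the reductase, topoisomerase, exporter and histone families, and 6 genes a direction of the difference between treatments; of the 174 genes this gives, those that carry each list are printed. Promoters are shown for the lists with the largest share of members called, from 300 to 101 bases before the start. The p-values rest on 2 cultures a group; DESeq2 1.42.0 and other settings were tried as alternatives.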

Additional observations from a re-analysis of the deposited data

Results flagged for a closer look

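The DOX response differed from the mean AD and MTX response for 999 genes, by the test of the difference itself. The groups share no vehicle cultures.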

How the results depend on the processing

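The calls of DOX against CD numbered between 1722 and 1859 when 1 culture was left out, against 2615 with all cultures: 1722 without CD culture 1, 1754 without CD culture 2, 1774 without DOX culture 1 and 1859 without DOX culture 2. The median over all genes moved by less than 0.1 under other scalings. With only technical replicate 2 the count was 1772 genes and with the replicate block (culture number as a block) 3275. Against the mean of the 3 SC vehicles it was 3196, and in a fit with only DOX and CD 3702, the highest count. The correlation of the culture differences was 0.155 for DOX and CD, 0.709 for AD and CA and -0.237 for MTX and CM. Each came from 2 pairs. The labels do not say that numbers pair cultures, so they are not used to pair them. For the difference from AD and MTX, the count was 999, against 356 with only technical replicate 2, 1714 with the replicate block, and between 471 (without CD culture 2) and 1105 (without CA culture 1) with 1 culture left out; without CD culture 1 it was 523, without DOX culture 1 517 and without DOX culture 2 623. The cause of these shifts was not tested. DESeq2 called 2742 genes for DOX against CD and 1191 for the difference. Of the 171 named genes called, 35 lost their call in at least 1 alternative, all 35 with 1 culture left out and 12 of them also with other settings; none changed direction. RNR4 (adjusted p = 0.0129) and HUG1 (adjusted p = 0.0423) passed in the fit with only the groups compared. The 2 cultures a group limit the precision, and few 1.5-fold changes are found at this size (28.4% in simulation).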

Other observations

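Of 435 tested features with no RefSeq match 83 were higher and 43 lower (19.1% and 9.89%, median log2 fold change 0.16), and within 20 kb of a chromosome end 65 of 263 features were higher and 26 lower. PAU22, named here after its values were seen, had 2.22 and 1.95 CPM in DOX cultures against 0.0803 and 0 CPM in CD cultures.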
